A study of Homo sapiens with 4 samples.

Results

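The MHC class I and peptide loading genes, 9 in number, were followed across 4 treatments of human microglia-like cells: the heavy chains HLA-B, HLA-C, HLA-E and HLA-F, the light chain B2M, the peptide transporter subunits TAP1 and TAP2, and the immunoproteasome subunits PSMB8 and PSMB9. They were chosen by gene symbol, and each symbol matched 1 gene ID in both libraries, so that 9 of the 36601 genes in the files were the members. All 9 passed the filter on low counts, as did 15066 genes in all. The study asked how blocking γ-secretase, a membrane protease that cuts many receptor stubs, changes expression in microglia-like cells, and whether lipopolysaccharide (LPS), a bacterial cell wall component sensed by TLR4, overrides such a change. The cells derive from a single embryonic stem cell line, H9, whose monocyte-like progeny were matured with TGF-β, IL-34 and cholesterol, so that the 12 cultures carry 1 genotype.

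There were 4 conditions with 3 cultures each. SemaLPS cultures were kept for 22 h in 2 µM semagacestat, an inhibitor of γ-secretase, with 200 ng/mL LPS present during the final 6 h. LPS cultures received DMSO, the vehicle of the inhibitor, and the same LPS. Sema cultures received semagacestat and PBS, the vehicle of LPS, and Ctrl cultures received DMSO and PBS. All cells were detached in the presence of 5 µM actinomycin D, which stops transcription, and each culture was stained with its own barcoded hashtag antibody before pooling and division into 2 droplet libraries. Unique molecular identifiers (UMIs), each standing for 1 captured mRNA molecule, were summed per culture, and the culture is the replicate. The labels call the 3 cultures of a condition biological replicates without saying what separated them, so a p-value here reflects how much these 12 cultures vary.

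The libraries held 28943 barcodes and 900761329 UMIs, and 14933 cells with a single hashtag passed the filters. A culture had 1062 to 1651 cells and 30302342 to 51286977 UMIs, and the median cell had between 27355 and 31410 UMIs in each culture. All 12 microglia and macrophage markers were detected in every condition, with summed levels of 6989 to 8010 CPM (UMIs scaled to a common library total) in a culture, and erythroid and megakaryocyte markers summed to at most 0.0654, B cell markers to 0.458, mast cell and granulocyte markers to 1.70 and pluripotent and neural markers to 10.8 CPM. T and NK cell markers summed to 18.9 to 25.8 CPM, of which NKG7 made up 21.2 on average. Several hashtags were found on 23.17% of barcodes, which were left out, and 91 barcodes occurred in both libraries, 10 of them among the kept cells. Among the 12 cultures 1 stood apart: the summed level of 14 interferon-induced genes was 451 CPM in LPS replicate 3, against 222 and 158 CPM in the other LPS cultures. The sum was 176 to 201 CPM in SemaLPS, 127 to 165 CPM in Sema and 141 to 171 CPM in Ctrl. In LPS replicate 3 IFI6 had 191 CPM, against 37.9 and 33.3 CPM in the other LPS cultures, and ISG15 had 131 CPM, against 55.8 and 39.5 CPM. IFIT1, IFIT3, RSAD2 and CMPK2 lay between the other LPS cultures, and the rest of the list was highest in LPS replicate 3 by smaller amounts. The hashtag counts of LPS replicate 3 were the lowest too, with medians of 292 and 282 per cell in the libraries. Results that rest on LPS replicate 3 are therefore also given without it.

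MHC class I molecules show peptides from inside the cell to CD8 T cells and natural killer cells. The proteasome cuts proteins into peptides, the TAP1 and TAP2 heterodimer pumps them into the endoplasmic reticulum, and a loading complex fits them to a heavy chain held by β2-microglobulin, the product of B2M. Interferons and NF-κB raise most of these genes, and they put the inducible β subunits encoded by PSMB8, PSMB9 and PSMB10 in place of the constitutive PSMB5, PSMB6 and PSMB7. Microglia at rest carry little MHC class I on their surface, and inflammation raises it.

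The members lie in the MHC on chromosome 6, apart from B2M on chromosome 15. In GENCODE v29 on GRCh38, TAP2 (chr6:32821833-32838780, minus strand), PSMB8 (chr6:32840717-32844703, minus), TAP1 (chr6:32845209-32853978, minus) and PSMB9 (chr6:32844136-32859585, plus) fall within 37753 bases. HLA-F (chr6:29722775-29738528, plus), HLA-E (chr6:30489467-30494205, plus), HLA-C (chr6:31268749-31272130, minus) and HLA-B (chr6:31269491-31357188, minus, a model that runs past HLA-C in this release) lie further towards the telomere of the short arm, and B2M is at chr15:44711487-44718877 (plus). That PSMB9 model spans TAP1. The long noncoding PSMB8-AS1 (chr6:32844086-32846495, plus) overlaps the 5′ end of PSMB8, the 3′ end of TAP1 and the PSMB9 model.

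Promoter windows of 250 bases before to 50 after the start site were taken from RefSeq on GRCh38.p14, which held 8 of the 9 members. The RefSeq start sites of TAP1 and PSMB9 used for these windows are 488 bases apart on opposite strands, and the windows share 13 bases. Those of HLA-B and HLA-C are shown because both genes rose with LPS to different degrees, and those of TAP1, PSMB9 and PSMB8 because they are neighbours that moved differently. Capitals mark matches on either strand to the NF-kB consensus or to AANNGAAA, letters shared by sites of the interferon-stimulated response element, and overlapping matches are merged.
HLA-B, chr6:31357130-31357429, minus strand: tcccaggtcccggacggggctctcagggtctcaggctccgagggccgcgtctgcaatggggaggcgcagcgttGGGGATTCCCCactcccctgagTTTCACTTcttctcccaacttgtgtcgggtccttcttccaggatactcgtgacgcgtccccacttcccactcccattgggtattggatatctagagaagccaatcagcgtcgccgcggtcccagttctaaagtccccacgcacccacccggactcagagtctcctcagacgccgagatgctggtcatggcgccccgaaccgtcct
HLA-C, chr6:31272043-31272342, minus strand: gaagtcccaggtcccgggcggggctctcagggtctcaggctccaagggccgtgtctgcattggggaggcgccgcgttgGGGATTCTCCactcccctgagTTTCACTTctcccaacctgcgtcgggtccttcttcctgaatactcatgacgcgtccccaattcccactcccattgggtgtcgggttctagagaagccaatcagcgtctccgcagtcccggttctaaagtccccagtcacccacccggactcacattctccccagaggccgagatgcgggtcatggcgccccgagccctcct
TAP1, chr6:32853655-32853954, minus strand: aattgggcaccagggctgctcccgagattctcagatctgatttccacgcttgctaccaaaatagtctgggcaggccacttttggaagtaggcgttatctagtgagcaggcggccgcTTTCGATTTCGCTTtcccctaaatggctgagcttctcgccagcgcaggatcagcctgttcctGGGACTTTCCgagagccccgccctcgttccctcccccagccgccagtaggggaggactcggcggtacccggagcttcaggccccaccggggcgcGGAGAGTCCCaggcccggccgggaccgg
PSMB9, chr6:32853942-32854241, plus strand: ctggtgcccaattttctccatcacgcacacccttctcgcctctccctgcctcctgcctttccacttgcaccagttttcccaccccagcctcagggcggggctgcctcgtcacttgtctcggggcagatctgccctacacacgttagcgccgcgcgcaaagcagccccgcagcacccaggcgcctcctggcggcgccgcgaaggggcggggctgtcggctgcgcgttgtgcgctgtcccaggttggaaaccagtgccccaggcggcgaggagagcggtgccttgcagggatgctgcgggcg
PSMB8, chr6:32843998-32844297, minus strand: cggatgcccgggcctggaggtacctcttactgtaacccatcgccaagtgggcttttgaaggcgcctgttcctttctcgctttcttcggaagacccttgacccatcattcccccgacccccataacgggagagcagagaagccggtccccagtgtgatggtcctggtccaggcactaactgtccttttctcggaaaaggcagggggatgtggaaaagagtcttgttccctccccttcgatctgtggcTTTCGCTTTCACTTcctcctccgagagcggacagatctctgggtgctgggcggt
The NF-kB consensus matched 2 times in the HLA-B window (overlapping), 1 time in HLA-C, 2 times in TAP1 and 1 time in the B2M window, and it did not occur in the windows of PSMB8, PSMB9, TAP2 and HLA-F or in a second TAP1 window (chr6:32852712-32853011). It occurs in 7.73% of 35116 promoter windows. AANNGAAA, found in 22.83% of windows, matched 1 time each in HLA-B, HLA-C and HLA-F, and 2 times each in B2M, TAP2, the TAP1 window shown and the PSMB8 window shown. It was not found in the PSMB9 window, in the second TAP1 window or in a second PSMB8 window (chr6:32844630-32844929). The AANNGAAA matches and the first NF-kB match of the TAP1 window shown lie between the start sites of TAP1 and PSMB9, outside the PSMB9 window. A match is a description of the letters only.

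Most of the pathway was higher after 6 h of LPS. In LPS against Ctrl cultures, 7 of the 9 members rose, 1 fell and 1 did not pass the test, where 30.3% of all genes tested rose and 29.0% fell (edgeR quasi-likelihood test, adjusted p under 0.05 over 15066 genes). The median log2 fold change was 0.76 over the members and −0.02 over all genes tested. In SemaLPS against Sema cultures, again 7 rose and 1 fell, where 31.0% of all genes rose and 30.3% fell, and the members' median was 0.78. Both comparisons hold different cultures, so the LPS effect was measured in separate cells with and without the inhibitor. In each of the 2 libraries alone, 7 members rose in both comparisons. In LPS against Ctrl 1 member fell in each, where 3793 of 13562 genes rose in library 1 and 4012 of 13953 in library 2. In SemaLPS against Sema 2 members fell in library 1 and 1 in library 2. There 3938 genes rose and 3744 fell in library 1, and 4059 rose and 3857 fell in library 2. Cells over the mitochondrial maximum, which were left out, were 20.32% to 31.73% of a culture in LPS and 31.13% to 39.08% in Ctrl. Summed levels of 8 markers of dividing cells were 208 to 304 CPM in LPS, against 310.3 to 561 CPM in Ctrl. Summed levels of 4 endothelial and stromal markers, mostly PECAM1, were 35.0 to 48.2 CPM in LPS, against 77.1 to 98.5 CPM in Ctrl, and 32.7 to 40.8 CPM in SemaLPS, against 74.1 to 78.5 CPM in Sema. The part of these in the members' changes was not tested. With a mitochondrial maximum of 20% again 7 members rose and 1 fell in LPS against Ctrl, where 4792 of 15574 genes rose and 4617 fell. Whether cultures overlap is given gene by gene below, and the share of all genes without overlap was not worked out.

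Of the members other than HLA-F, the transporter gene TAP1 had the largest log2 fold change in both LPS comparisons. It had 40.8, 39.7 and 38.6 CPM in LPS cultures, against 7.86, 7.89 and 8.27 CPM in Ctrl. TAP1 had 41.8, 42.7 and 40.6 CPM in SemaLPS cultures, against 8.36, 7.48 and 7.97 CPM in Sema. Every LPS-treated culture was far above every culture without LPS, and the 3 cultures of a condition lay close together. The log2 fold change was 2.31 (SE 0.05, adjusted p = 6.33e-13, edgeR) in LPS against Ctrl and 2.39 (SE 0.05, adjusted p = 3.6e-13, edgeR) in SemaLPS against Sema.

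TAP2, the partner of TAP1 in the transporter, rose less. It had 16.9, 15.2 and 16.0 CPM in LPS cultures, against 6.63, 7.28 and 7.88 CPM in Ctrl, and 17.8, 17.2 and 16.4 CPM in SemaLPS, against 8.28, 7.39 and 6.19 CPM in Sema. The LPS-treated cultures did not overlap the others. Its log2 fold changes were 1.14 (SE 0.10) and 1.24 (SE 0.09), with adjusted p of 2.42e-07 and 7.12e-08 from edgeR. TAP1 and TAP2 were thus captured about equally without LPS and unequally with it: the UMI ratio of TAP1 over TAP2 averaged 2.43 ± 0.0752 in SemaLPS and 2.48 ± 0.121 in LPS, against 1.10 ± 0.161 in Sema and 1.11 ± 0.0708 in Ctrl (SD, n = 3 each). UMIs from the 3′ end count a molecule once whatever its length, so these ratios were not divided by length, and the efficiency of capture may still differ between genes.

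Of the heavy chains, HLA-B rose most among those of high level. This classical class I chain had 230.4, 224 and 266 CPM in LPS cultures, against 136, 142 and 148 CPM in Ctrl. In SemaLPS it had 231, 239.7 and 244 CPM, against 138, 135 and 142 CPM in Sema. The LPS-treated cultures lay above all the others, and LPS replicate 3 was the highest. The log2 fold change was 0.76 (SE 0.06, adjusted p = 6.74e-08, edgeR) in LPS against Ctrl, 0.68 without LPS replicate 3, and 0.78 (SE 0.06, adjusted p = 4.46e-08, edgeR) in SemaLPS against Sema.

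HLA-C, the classical chain that also serves as the main ligand of killer cell immunoglobulin-like receptors, started higher and rose less. It had 236, 233 and 277 CPM in LPS cultures, against 169, 178 and 197 CPM in Ctrl, and 229, 242 and 250.9 CPM in SemaLPS, against 169.8, 174 and 189 CPM in Sema. The groups did not overlap, but LPS replicate 3 again stood above the other LPS cultures, and Ctrl replicate 3 above the other Ctrl cultures. Its log2 fold changes were 0.46 (SE 0.07, adjusted p = 9.37e-05) and 0.44 (SE 0.07, adjusted p = 0.000131) by edgeR, and 0.37 in LPS against Ctrl without LPS replicate 3. Reads can be assigned to the wrong one of these similar genes: of 90-base windows in the last 500 bases of their transcripts, 0 of 1297 from HLA-B and 14 of 1202 (1.16%) from HLA-C were found in another gene. The alleles of H9 differ from the reference in sequences not analysed here, so levels are compared between conditions of the same line.

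HLA-E fell. HLA-E is a less variable chain that presents signal peptides of other class I chains to the NKG2A receptor of natural killer cells. It had 69.7, 78.8 and 85.9 CPM in LPS cultures, against 94.9, 108 and 103 CPM in Ctrl, and 68.1, 78.0 and 76.4 CPM in SemaLPS, against 93.9, 102 and 99.0 CPM in Sema. All 6 LPS-treated cultures were lower than all 6 others. The log2 fold change was −0.38 (SE 0.07, adjusted p = 0.000534, edgeR) in LPS against Ctrl and −0.41 (SE 0.07, adjusted p = 0.000313, edgeR) in SemaLPS against Sema. The value for LPS against Ctrl was −0.46 without LPS replicate 3.

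HLA-F, a chain found mostly inside cells, was near the limit of detection. It had 67, 37 and 84 UMIs in LPS cultures, against 10, 8 and 8 UMIs in Ctrl, which is 1.91, 1.08 and 2.23 CPM against 0.300, 0.246 and 0.238 CPM. In SemaLPS it had 68, 68 and 55 UMIs, against 22, 10 and 16 UMIs in Sema. The LPS-treated cultures did not overlap the others, and the small UMI sums limit how closely its size can be given. The log2 fold changes were 2.73 (SE 0.34, adjusted p = 1.16e-05) and 2.00 (SE 0.30, adjusted p = 6.03e-05) by edgeR.

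B2M, the light chain that every class I complex needs, was the most abundant member. It had 2518, 2338 and 2794 CPM in LPS cultures, against 2046, 2016 and 2077 CPM in Ctrl. In SemaLPS it had 2483, 2472 and 2454 CPM, against 2045, 1998 and 2137 CPM in Sema. The groups did not overlap, and LPS replicate 3 was the highest of all. The log2 fold change was 0.32 (SE 0.05, adjusted p = 0.000116, edgeR) in LPS against Ctrl, 0.25 without LPS replicate 3, and 0.26 (SE 0.05, adjusted p = 0.000551, edgeR) in SemaLPS against Sema. The rise depends on scaling: with library size alone it was 0.11 (adjusted p = 0.0332) in LPS against Ctrl and 0.05 (adjusted p = 0.289, not called) in SemaLPS against Sema. On that scale B2M in LPS replicate 2, at 2222 CPM, lay below Ctrl replicate 1, at 2229 CPM, and Sema replicate 3, at 2243 CPM.

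**Figure D1:**
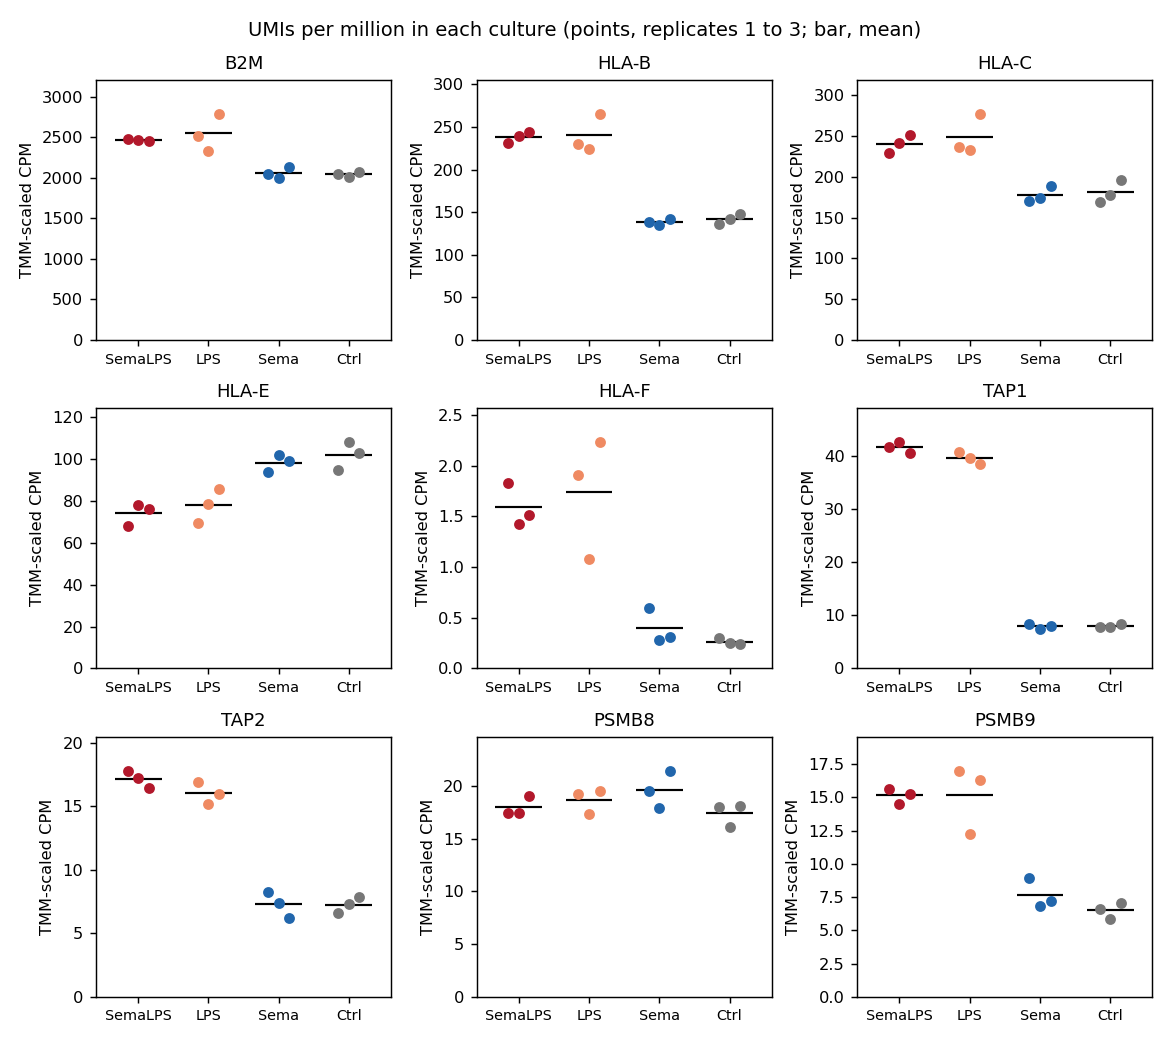
Level of each of the 9 genes in each culture, in TMM-scaled CPM (linear axes from 0), by condition; points are replicates 1, 2 and 3 from left to right and the bar is their mean. On this scale the 6 LPS-treated cultures lie above the 6 others for B2M, HLA-B, HLA-C, HLA-F, TAP1, TAP2 and PSMB9, below them for HLA-E, and among them for PSMB8. The share of all genes that separate in this way was not worked out.

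The immunoproteasome subunits separated. PSMB9, which encodes the inducible subunit β1i, had 17.0, 12.2 and 16.3 CPM in LPS cultures, against 6.63, 5.83 and 7.02 CPM in Ctrl, and 15.6, 14.5 and 15.3 CPM in SemaLPS, against 8.91, 6.83 and 7.21 CPM in Sema. Its LPS-treated cultures did not overlap the others. Its log2 fold changes were 1.22 (SE 0.13, adjusted p = 1.97e-06) and 0.99 (SE 0.12, adjusted p = 1e-05) by edgeR. PSMB8, which encodes β5i, had 19.2, 17.3 and 19.5 CPM in LPS cultures, against 18.0, 16.1 and 18.1 CPM in Ctrl, and 17.5, 17.5 and 19.1 CPM in SemaLPS, against 19.5, 17.9 and 21.4 CPM in Sema. These groups overlapped.

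For PSMB8 the log2 fold change was 0.10 (SE 0.08, adjusted p = 0.262, edgeR) in LPS against Ctrl and −0.13 (SE 0.07, adjusted p = 0.145, edgeR) in SemaLPS against Sema. With the replicate number as a block, PSMB8 passed the test as lower in SemaLPS than in Sema, at −0.12 (adjusted p = 0.0276, edgeR), where 34.0% of all genes fell. It also passed as lower without Sema replicate 2 (−0.20, adjusted p = 0.0373) and in library 1 alone (−0.30, adjusted p = 0.00328), but not in library 2 alone (−0.01, adjusted p = 0.927). PSMB8-AS1 overlaps PSMB8 at its 5′ end, away from the 3′ end from which UMIs are counted, and overlaps TAP1 at its 3′ end. PSMB8 and TAP1 are on the minus strand, and PSMB8-AS1 is on the plus strand, as is PSMB9. No strand setting is given in the sources used here, so whether reads from opposite strands were separated is not known. Reads from the overlap of PSMB8-AS1 and the PSMB9 model cannot be told apart by strand.

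Scaling set how far the whole pathway stood above zero. The TMM factors were 0.919 to 0.951 in LPS-treated cultures and 1.05 to 1.09 in the others. With library size alone the median of all genes in LPS against Ctrl was −0.22, and 16.4% of genes rose and 46.8% fell (2466 and 7050 genes, against 4571 and 4365 with TMM). On that scale 7 members still rose and 1 fell in LPS against Ctrl, at 2.10 for TAP1, 1.02 for PSMB9, 0.93 for TAP2, 0.55 for HLA-B, 0.25 for HLA-C and −0.59 for HLA-E, and PSMB8 changed sign to −0.10 (adjusted p = 0.201). In SemaLPS against Sema 17.1% of genes rose and 48.1% fell, 6 members rose, and PSMB8 fell by 0.34 (adjusted p = 0.000593, edgeR) beside HLA-E. Members' UMIs made up 0.291%, 0.281% and 0.323% of all UMIs in LPS cultures, against 0.271%, 0.267% and 0.271% in Ctrl.

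Ratios between genes of the same culture do not depend on scaling. Some of those used here include PSMB5, PSMB6, PSMB7 or PSMB10, which are not members. In all, 8 ratios were compared between LPS-treated and LPS-free cultures by an exact permutation test within each inhibitor level (two-sided, 400 permutations, smallest possible p = 0.005). These ratios were compared after their values had been seen. Inducible over constitutive subunits gave different answers for the 3 pairs. PSMB9 over PSMB6 was 0.0698 to 0.0900 with LPS, against 0.0429 to 0.0634 without it, which is 1.62-fold higher (adjusted p = 0.00571). PSMB8 over PSMB5 was 0.0652 to 0.0757, against 0.0930 to 0.113, and PSMB10 over PSMB7 was 0.869 to 0.986, against 1.06 to 1.18. Both were lower with LPS, at 0.692-fold and 0.805-fold (adjusted p = 0.00571 each, permutation).

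Constitutive subunits rose together: PSMB5 by 0.52 (SE 0.04), PSMB6 by 0.40 (SE 0.04) and PSMB7 by 0.40 (SE 0.06) on the log2 scale in LPS against Ctrl, with the 3 of 3 also rising under library size alone. PSMB9 over PSMB8 was 0.704 to 0.894 with LPS, against 0.336 to 0.457 without it, 2.16-fold higher, and TAP1 over TAP2 was 2.23-fold higher (adjusted p = 0.00571 each, exact permutation test). HLA-B over HLA-C was 0.957 to 1.01 with LPS, against 0.749 to 0.814 without it. HLA-E over HLA-C was 0.295 to 0.339, against 0.523 to 0.609, which is 0.557-fold. The ratio of B2M to the 4 heavy chains together was the only one of the 8 to overlap, at 4.29 to 4.69 with LPS, against 4.64 to 5.11 without it (0.914-fold, adjusted p = 0.01, exact permutation test).

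**Figure D2:**
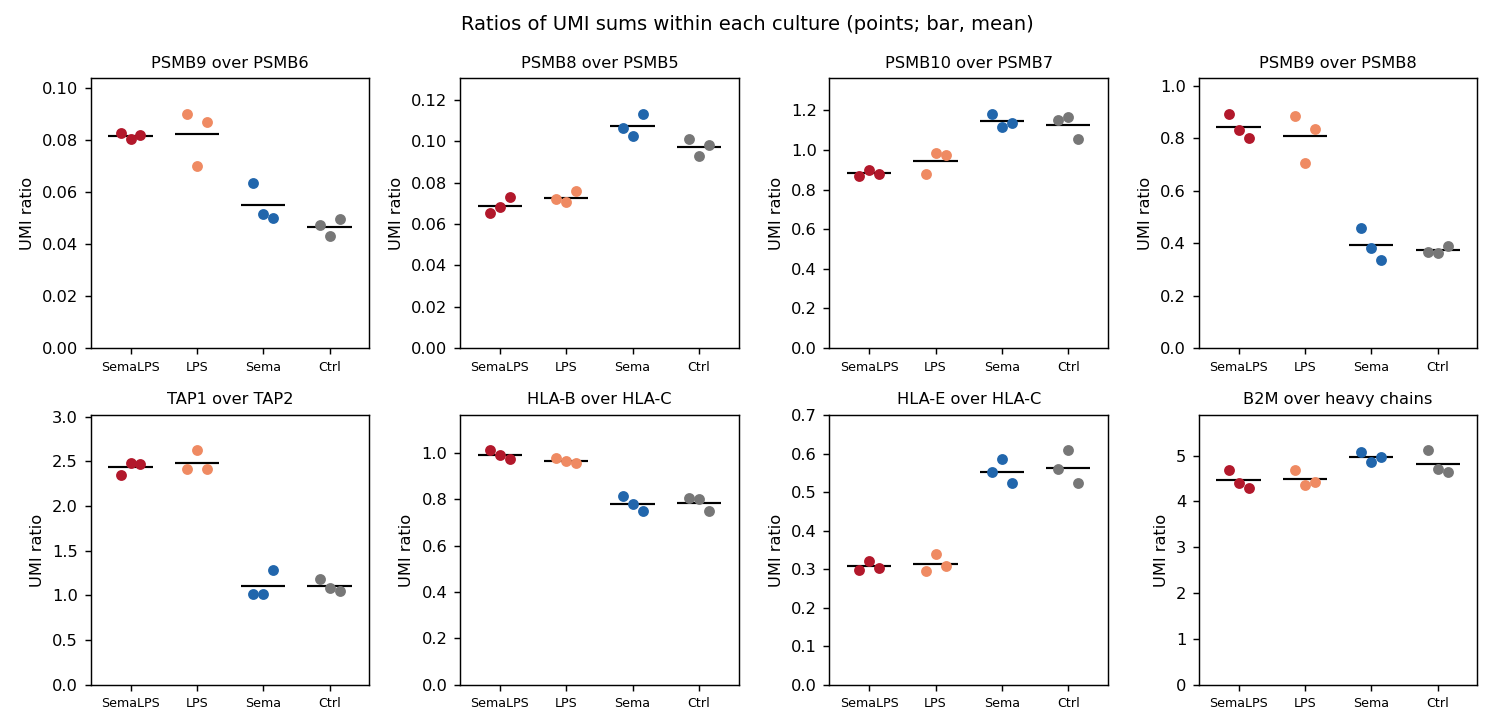
Ratios of UMI sums within each culture (linear axes from 0, no unit), by condition; points are replicates and the bar is their mean. PSMB9 over PSMB6, PSMB9 over PSMB8, TAP1 over TAP2 and HLA-B over HLA-C are higher in LPS-treated cultures, PSMB8 over PSMB5, PSMB10 over PSMB7 and HLA-E over HLA-C are lower, and B2M over the heavy chains overlaps.

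The make-up of the heavy chain pool moved with these ratios. HLA-B made up 42.2% ± 0.538 of the UMIs of the 4 members that encode heavy chains in LPS cultures and 33.4% ± 0.518 in Ctrl (SD, n = 3 each). HLA-E made up 13.8% ± 0.876 in LPS and 24.0% ± 1.16 in Ctrl. HLA-C took 43.7% in LPS cultures and 42.6% in Ctrl, and its cultures overlapped. With the inhibitor the shares were 43.0% in SemaLPS and 33.4% in Sema for HLA-B, and 13.4% in SemaLPS and 23.7% in Sema for HLA-E.

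Semagacestat changed no member past the threshold. In Sema against Ctrl 0 of the 9 members passed the test, where 0.0133% of all genes did (2 of 15066, edgeR). With the replicate number as a block, 0 members passed and 3.43% of all genes did (517). In SemaLPS against LPS 0 members passed, where 0.0133% of genes did without the block and 2.09% with it. The average of both inhibitor effects gave 0 members, where 0.0531% of genes passed without the block and 6.98% with it. The interaction of inhibitor and LPS gave 0 members, where 0% of genes passed without the block (0 genes, with 539 at an unadjusted p under 0.05, and 1 gene by DESeq2) and 0.0664% with it (10 genes). Of the 8 members other than HLA-F, log2 fold changes in both inhibitor comparisons lay between −0.08 and 0.23, with SEs of 0.04 to 0.13.

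TAP1 averaged 41.7 ± 1.02 CPM in SemaLPS and 39.7 ± 1.14 CPM in LPS, a log2 fold change of 0.07 (SE 0.04, adjusted p = 0.896, edgeR). SemaLPS exceeded the LPS culture of the same number in 3 of 3 cases, and with the block the value was 0.07 (SE 0.04, adjusted p = 0.445, edgeR). TAP1 averaged 7.94 ± 0.443 CPM in Sema and 8.01 ± 0.228 CPM in Ctrl, a log2 fold change of −0.01 (SE 0.06). Means of B2M were 2469.9 ± 14.6 CPM in SemaLPS and 2550.0 ± 230 CPM in LPS, and 2060.1 ± 70.7 CPM in Sema and 2046 ± 30.6 CPM in Ctrl. HLA-B averaged 238 ± 6.61 CPM in SemaLPS and 240.0 ± 22.4 CPM in LPS, and 138 ± 3.20 CPM in Sema and 142 ± 5.84 CPM in Ctrl (SD, n = 3 throughout). The replicates of each condition overlapped those of its counterpart for B2M and HLA-B. HLA-E was lower with the inhibitor than in the culture of the same number without it in 6 of 6 cases. With the block its average inhibitor effect was −0.06 (SE 0.03), with an unadjusted p of 0.0306 and an adjusted p of 0.202 by edgeR. TAP2 was higher with the inhibitor in 5 of 6 such cases.

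PSMB8 came nearest to the threshold. It averaged 19.6 ± 1.77 CPM in Sema and 17.4 ± 1.12 CPM in Ctrl, and Sema exceeded the Ctrl culture of the same number in 3 of 3 cases. The log2 fold change was 0.18 (SE 0.08), with an adjusted p of 0.684 by edgeR without the block and 0.0605 with it. In SemaLPS against LPS it was −0.06 (SE 0.07). The interaction was −0.23 (SE 0.11), with an unadjusted p of 0.0463 and an adjusted p of 1 in the edgeR fit without the block, and 0.0043 and 0.355 with it. PSMB9 had a log2 fold change of 0.23 (SE 0.13, adjusted p = 0.752, edgeR) in Sema against Ctrl and −0.01 (SE 0.12) in SemaLPS against LPS. HLA-F had 0.58 (SE 0.43) in Sema against Ctrl, a value that rests on 22 UMIs in Sema replicate 1 against 8 to 16 in the other cultures without LPS.

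**Figure D3:**
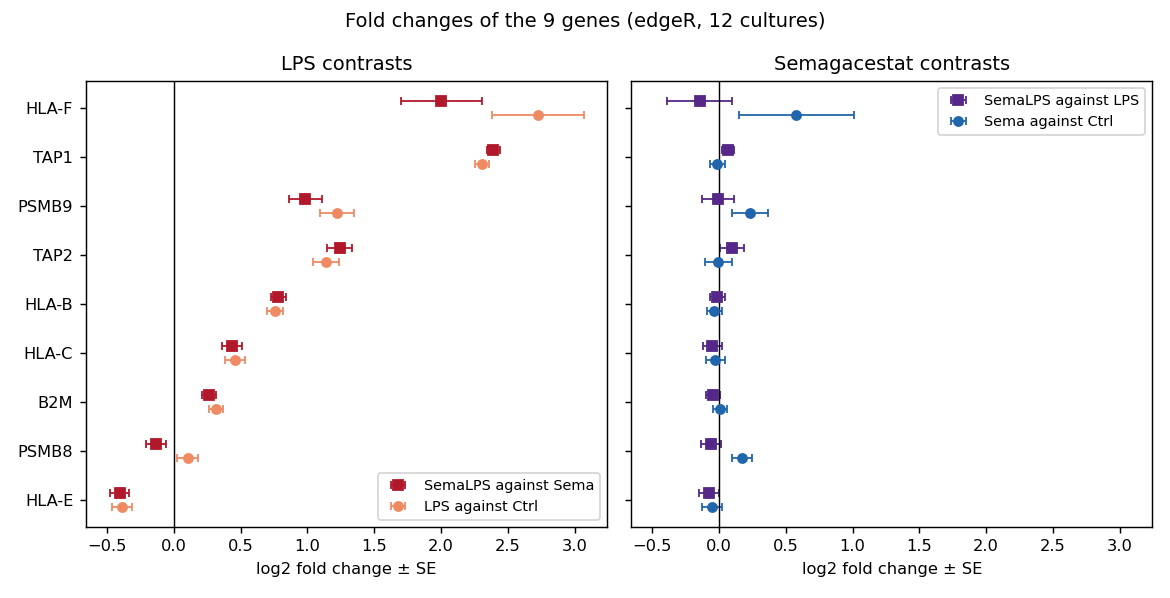
Log2 fold changes of the 9 genes from edgeR, with bars of 1 SE; the left panel holds SemaLPS against Sema and LPS against Ctrl, the right panel SemaLPS against LPS and Sema against Ctrl. LPS effects run from 2.73 for HLA-F to −0.41 for HLA-E, whereas inhibitor effects of the members other than HLA-F lie between −0.08 and 0.23.

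Shares of positive cells were compared beside the sums. Each cell was thinned to 10000 UMIs to hold depth equal, and 17 to 58 shallower cells per culture were left out. Values of thinned cells therefore follow library size and not the TMM scale. A UMI of TAP1 was found in 29.4% ± 1.27 of cells in SemaLPS, 29.1% ± 0.844 in LPS, 8.07% ± 1.38 in Sema and 8.07% ± 0.355 in Ctrl (SD, n = 3 each). Without thinning the shares per culture were 60.6% to 63.9% in SemaLPS, 59.1% to 61.2% in LPS, 20.4% to 21.9% in Sema and 20.0% to 21.8% in Ctrl. B2M was found in every thinned cell, so its share says nothing on its level. Free RNA in the droplets adds to these shares, and the cultures hold no cell type known to lack class I genes that could set a background.

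HLA-B was found in 81.8% of thinned cells in SemaLPS, 83.5% in LPS, 69.0% in Sema and 68.8% in Ctrl. HLA-E went the other way, with 47.7% in SemaLPS, 50.3% in LPS, 63.8% in Sema and 62.5% in Ctrl. TAP2 was found in 13.9%, PSMB9 in 12.3% and HLA-F in 1.39% of thinned SemaLPS cells, against 7.09%, 8.23% and 0.374% in Sema. For each of these genes the cultures with LPS did not overlap those without it at the same inhibitor level. An exact permutation test of 3 against 3 cultures cannot give a p under 0.1, which each of these pairs reached.

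For PSMB8 the shares of thinned cells were 15.1% ± 0.611 in SemaLPS, 15.6% ± 1.08 in LPS, 18.6% ± 0.105 in Sema and 16.8% ± 0.810 in Ctrl. At this depth Sema cultures lay above the Ctrl cultures and above the SemaLPS cultures without overlap, and LPS and Ctrl cultures overlapped, with a lower mean share in LPS although the mean CPM was higher, at 18.7 in LPS and 17.4 in Ctrl. Thinned to 5000 UMIs both separations were lost, with 7.45% to 8.95% in SemaLPS, 7.53% to 11.4% in Sema and 7.10% to 8.97% in Ctrl. PSMB9 was likewise found in more Sema cells (8.23% ± 0.908) than Ctrl cells (6.44% ± 0.943) without overlap, at the smallest exact p of 0.1, but without thinning 17.3% to 21.0% of Sema and 14.9% to 17.7% of Ctrl cells overlapped. Neither gene's sum passed the test between Sema and Ctrl.

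Most members were higher in the cells of a condition with the most UMIs of interferon-induced genes. Thinned cells were sorted by their UMIs of 14 interferon-induced genes, and cells with 10 or more (118 in SemaLPS, 171 in LPS, 45 in Sema and 47 in Ctrl) were set against cells with 0 to 1. A single culture held only 10 to 22 of these high cells in Sema and 12 to 21 in Ctrl. Of the 171 LPS cells 100 came from replicate 3, where IFI6 and ISG15 led the sum, so cultures were given equal weight. These bins were chosen after the data had been seen. HLA-E, which was lower with LPS, was higher in the cells with 10 or more in 12 of 12 cultures. It averaged 0.991 UMIs per cell in the high bin and 0.637 in the low bin in SemaLPS, 1.04 and 0.684 in LPS, 1.93 and 1.05 in Sema, and 1.68 and 1.08 in Ctrl.

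B2M and PSMB8 were also higher in the interferon-high cells of 12 of 12 cultures. PSMB8 averaged 0.236 UMIs per cell in the high bin and 0.166 in the low bin in SemaLPS, 0.270 and 0.187 in LPS, 0.452 and 0.211 in Sema, and 0.318 and 0.185 in Ctrl. TAP1 was higher in 6 of 6 LPS-treated cultures, at 0.603 against 0.370 in SemaLPS and 0.750 against 0.341 in LPS. In cells with 0 to 1 interferon UMIs TAP1 still averaged 0.370 in SemaLPS and 0.341 in LPS, against 0.0876 in Sema and 0.0837 in Ctrl. Without LPS, TAP1 was higher in 4 of 6 cultures. HLA-B and TAP2 were higher in 11, PSMB9 in 10 (4 of 6 with LPS) and HLA-C in 9 of 12 cultures. HLA-F had 12 UMIs in all in the high bin, too few to compare. Of the genes set beside the members, PSMB10 was higher in 6, ATP1B3 in 5, PSMB5 in 2 and PSMB6 in 0 of 12 cultures. The share of all genes with such counts was not worked out, so the counts are not shown to be particular to the members. Cells with 5 to 9 interferon UMIs differed less evenly from those with 0 to 1. There B2M was higher in 12, HLA-B and HLA-E in 11, and HLA-C, TAP1 and PSMB9 in 9 of 12 cultures. PSMB8 was higher in 7 (2 of 6 with LPS), HLA-F in 7 and TAP2 in 5 of 12.

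**Figure D4:**
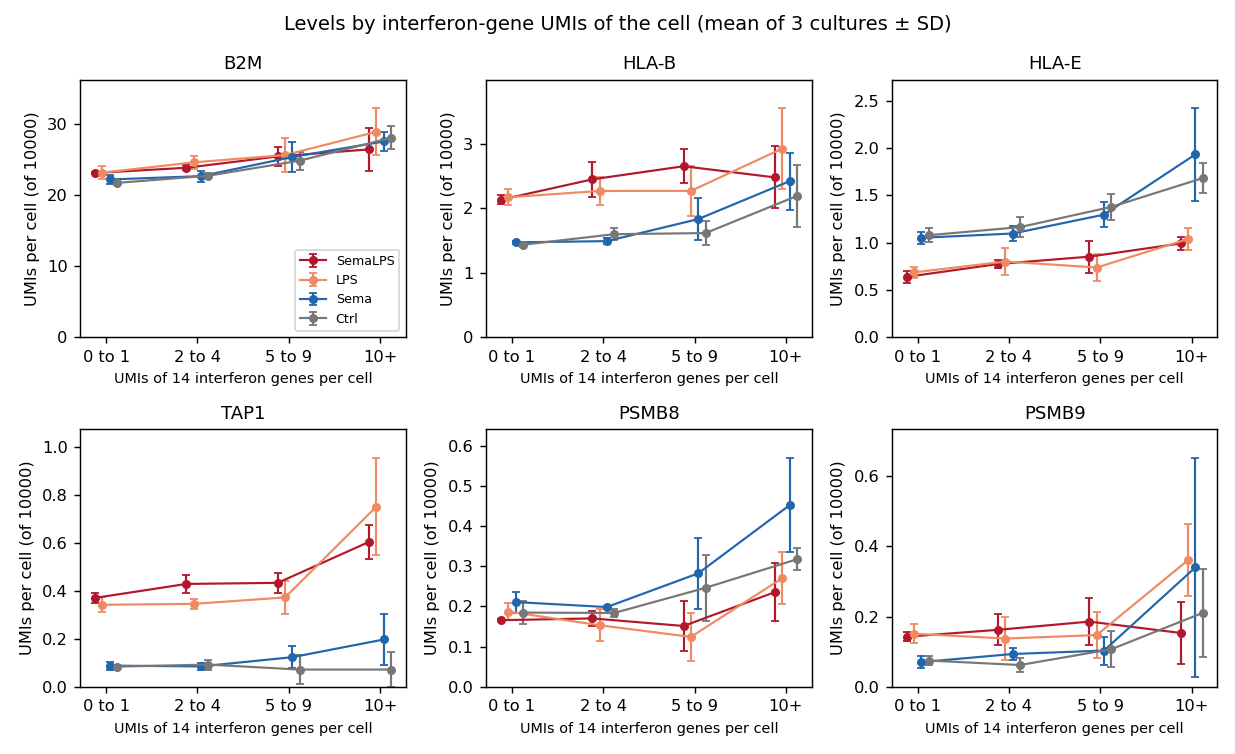
UMIs per cell (cells thinned to 10000 UMIs, linear axes from 0) of 6 members against the UMIs of 14 interferon-induced genes in the same cell, by condition; points are means of 3 cultures and bars the SD. HLA-E and PSMB8 end highest in the 10+ bin in each condition, and the TAP1 lines of LPS-treated cells lie above the others in every bin.

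The genes around the members were read in the same fit, from lists chosen with earlier results of these data known, and each count stands against the 30.3% of all genes that rose and the 29.0% that fell in LPS against Ctrl, or 16.4% and 46.8% on library size alone. The list of the peptide loading complex and trimming also holds the endoplasmic reticulum chaperones HSPA5 and HSP90B1. Of its 8 tested genes, 6 rose and 0 fell in LPS against Ctrl, led by TAPBP, the tapasin that bridges TAP and heavy chain. TAPBP had 142, 143 and 144 CPM in LPS cultures, against 79.6, 77.5 and 75.7 CPM in Ctrl, a log2 fold change of 0.88 (SE 0.03, adjusted p = 3.17e-11, edgeR). The chaperone HSPA5 rose by 0.41 and the disulfide isomerase PDIA3 by 0.36. On library size alone 3 of the 8 rose and 3 fell, and TAPBP, HSPA5 and PDIA3 rose on both scales. In SemaLPS against Sema 6 rose and 0 fell, with TAPBP at 0.79, where 31.0% of all genes rose and 30.3% fell.

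Of 6 tested genes of the immunoproteasome list other than the members, which holds PSMB10 and the PA28 regulator, 6 rose in LPS against Ctrl. PSME2, which encodes PA28β, rose by 1.14 (SE 0.05, adjusted p = 3.07e-10, edgeR), with 182, 174 and 189 CPM in LPS cultures, against 84.3, 79.0 and 84.8 CPM in Ctrl. PSME1, its partner PA28α, rose by 0.53 and PSME3 by 0.52. PSMB10, the third inducible subunit, had 0.15 (SE 0.05, adjusted p = 0.0155, edgeR) and turned to −0.06 (adjusted p = 0.278) on library size alone, where 3 of the 6 rose. In SemaLPS against Sema 4 of the 6 rose, where 31.0% of all genes did, and PSMB10 had 0.01.

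Of 14 genes that encode class I transactivators, 8 rose and 2 fell in LPS against Ctrl, where 30.3% of all genes rose and 29.0% fell, and 5 rose and 3 fell on library size alone, where 16.4% and 46.8% did. NFKB1, the precursor of the NF-κB subunit p50, rose by 2.69 (SE 0.06), IRF1, which binds interferon response elements, by 0.94 (SE 0.06) and RELA, another NF-κB subunit, by 0.48 (SE 0.05). NLRC5, the transactivator of class I genes, chosen here after its value was seen, had 0.882, 0.671 and 0.851 CPM in LPS cultures, against 0.720, 0.737 and 0.625 CPM in Ctrl. Those groups overlapped, and its log2 fold change was 0.21 (SE 0.19, adjusted p = 0.439, edgeR).

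Of 14 interferon-induced genes 11 rose and 2 fell in LPS against Ctrl. Without LPS replicate 3, 8 rose and 2 fell, where 4394 of 15286 genes rose and 4094 fell. IFIT3 rose by 1.47 (SE 0.17), MX2 by 1.40 (SE 0.28; 1.07 without LPS replicate 3) and OAS3 by 0.97 (SE 0.14). Of 8 tested guanylate-binding and interferon-γ-type genes 7 rose and 0 fell, among them the chemokine CXCL10 by 5.45 (SE 0.35), the GTPase GBP2 by 4.33 (SE 0.18) and the tRNA synthetase WARS by 1.34 (SE 0.04). Of 5 tested MHC class I genes outside the members, 2 rose and 3 fell: CD1D, which presents lipids, fell by 2.26 (SE 0.21), MICB, a ligand of NKG2D, fell by 0.56 (SE 0.07), and MR1, which presents vitamin metabolites, rose by 0.49 (SE 0.06). Of 10 MHC class II genes 2 rose and 3 fell, with HLA-DMB, a peptide editor, falling by 1.31 (SE 0.07); on library size alone 0 rose and 3 fell. The class II counts are near or below the shares over all genes, 30.3% and 29.0%, or 16.4% and 46.8% on library size alone.

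The inhibitor moved some of these neighbours in the fit with the block. In SemaLPS against LPS, 3 of the 8 genes on the loading list passed as higher, where 2.09% of all genes passed in either direction. They were CALR by 0.11 (adjusted p = 0.0391), HSPA5 by 0.11 (adjusted p = 0.0409) and HSP90B1 by 0.11 (adjusted p = 0.0481, edgeR each). TAPBP and PDIA3 were not among them, and 0 of the 8 passed without the block. All 10 class II genes passed as higher with the block and 0 without it, HLA-DMB by 0.43 (adjusted p = 0.00019, edgeR). In Sema against Ctrl, PSME1 passed with the block by 0.12 (adjusted p = 0.0396, edgeR). No member did so in either comparison.

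Replicate numbers left a mark on the members. Deviations from the condition mean were positive in 4 of 4 cultures of number 3 for HLA-B, HLA-C, HLA-E and PSMB8, and in 0 of 4 cultures of number 1 for HLA-B, HLA-C and HLA-E. PSMB9 and HLA-F went the other way, positive in 4 of 4 cultures of number 1 and 0 of 4 of number 2. What cultures of the same number have in common is not given in the labels.

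Over the 12 cultures the genes most like TAP1 in log2 CPM, among 5276 genes at 20 CPM or more, were WTAP (Pearson r = 0.9993), KMO (0.9992), MCOLN2 (0.9992), EHD1 (0.999) and DRAM1 (0.999). Those most like B2M were SMAP2 (0.9865), SUGT1 (0.9796), MYL12B (0.9788), ATG4A (0.9765) and TOX4 (0.9716). The 12 points fall into LPS-treated and LPS-free cultures, so these values describe the shared step between them.

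The hashtag antibodies of this kind bind the β2-microglobulin protein and CD298, which gives a view of the surface beside the mRNA. Within a culture and library, the cell's own hashtag count went with its total UMIs (Spearman rho 0.299 to 0.575 over 24 culture and library pairs) and weakly with B2M UMIs per total UMI (0.044 to 0.261), while rho with ATP1B3, which encodes CD298, was −0.103 to 0.079. The median own-tag count ran from 282 to 1637, and the antibody conjugate differed in each culture, so levels between conditions cannot be told apart from conjugates.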

How the data were processed

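The authors deposited raw UMI counts, for genes and hashtags, of the barcodes that Cell Ranger 6.0.1 (per the file headers) called as cells. Per the submitters' processing notes, Seurat 4.1.1, Cell Ranger 3.0.2 and the build hg38 were used. The sources used here do not name the annotation release. Members and lists were chosen with earlier results of these data known.

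Barcodes were assigned to cultures per library in the manner of HTODemux (13 k-means clusters of centred log ratios, a negative binomial's 99th percentile as threshold, with the top 0.5% left out). Of 28943 barcodes, 21757 carried 1 hashtag, 6707 several and 479 none. Kept cells had 1 hashtag, 1000 or more genes and no more than 10% mitochondrial UMIs; barcodes with several hashtags were the only doublets removed. That maximum removed 20.32 to 39.08% of the cells of a culture. UMI sums per culture, with libraries joined, were fitted with edgeR 4.0.16 in R 4.3.3 (TMM, filterByExpr, quasi-likelihood F test, 12 cultures in 1 fit without a block), with Benjamini-Hochberg adjustment over 15066 genes and calls at 0.05. Standard errors are the log2 fold change over the square root of F, an approximation. CPM are TMM-scaled except marker sums. The script was tested on simulated counts.

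Same-numbered cultures deviated together: over 5281 genes their correlations were 0.447 to 0.748, against −0.567 to 0.17 for other numbers, and 12 of 12 cultures correlated best with their own number. The pairing comes from the data, not from the labels. The text names all 9 members, up to 3 called genes of each list with the smallest adjusted p in a comparison, and the 5 genes most correlated with TAP1 and with B2M; NLRC5, PSMB10 and ATP1B3 fall outside this rule and are named for their role. SDs are taken between the 3 cultures of a condition, and SEs come from the edgeR fit, so both include variation between cultures. Alternatives were the replicate block, DESeq2 1.42.0 (Wald test, and its size factors in edgeR), no filter on low counts, each library alone, a 20% mitochondrial maximum, assignment by a ratio of 3 between the top hashtags, the 2 groups alone, leaving out each culture or the interferon-high cells, and, added after seeing the data, library size alone. Positions are from GENCODE v29 and promoters from RefSeq.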

Additional observations from a re-analysis of the deposited data

How the results depend on the processing

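The number of members called kept within 1.5 times its value in 136 of 136 combinations of comparison and alternative. Of 1219 values of members' log2 fold changes under alternatives, 1163 kept direction and side of the threshold and 51 changed the sign of a value that passed in neither fit. The other 5 were 4 in which PSMB8 came to pass as lower in SemaLPS than in Sema (replicate block, library 1 alone, without Sema replicate 2, library size alone) and 1 in which B2M no longer passed (library size alone, 0.05); the cause was not tested. With the replicate number as a block, the paired fit changed no other member's call. Leaving out each culture gave a range of 2.29 to 2.33 for TAP1, 0.25 to 0.38 for B2M and 2.50 to 2.98 for HLA-F in LPS against Ctrl. Counts over all genes moved more: Sema against Ctrl gave 2 genes, 517 with the block, 17 by DESeq2's Wald test, 26 without a filter and 0 to 4 when a culture was left out. SemaLPS against LPS gave 2 genes, 315 with the block, 12 by DESeq2, 11 without a filter, 6 in library 2 and 0 to 3 without a culture. The average inhibitor effect gave 8 genes, 1051 with the block, 46 by DESeq2, 103 without a filter and 4 to 27 without a culture. Of 288 shares of positive cells 42 moved by more than 1 SD between replicates, and of 292 ratios and other values 7 did. DESeq2 gave no adjusted p for 5 member values, which were left out. HLA-F, at 8 to 84 UMIs per culture, is the member whose size depth limits.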
